A study of Mus musculus with 6 samples.

Results

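Actb, Actg1, Vim, Tuba1a, Tuba1b, Tuba1c, Tubb5, Tmsb10 and Cfl1 encode abundant proteins of the cytoskeleton. These 9 genes were found by their GENCODE symbol among the 53801 genes listed in the counts of 6 mouse melanomas, and all 9 had reads. Each tumour grew from cells of B16-F10, a melanoma line from mouse skin, injected under the skin of awake male wild-type C57BL/6J mice of 10 to 12 weeks. The SEVO tumours (n = 3) came from cells primed with the anaesthetic gas sevoflurane, in a chamber flushed with 2% sevoflurane for 30 min and then incubated there for 2 h. The CTRL tumours (n = 3) came from unprimed cells, and no mouse of either group was anaesthetised for the injection. One cell line stood behind all tumours, and the gas reached the cells before injection only, so every value below was read in tissue that had grown afterwards in an untreated host. RNA came from pieces of whole tumour. The labels give the tissue as melanoma and the cell type as monocytes.

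Actin monomers join into filaments that give cells their shape and let them crawl and contract. Alpha- and beta-tubulin form dimers that build microtubules, the tracks of the spindle and of transport inside the cell. Vimentin builds the intermediate filaments of mesenchymal cells and of most melanoma lines. Thymosin beta-10 holds free actin monomers and cofilin severs old filaments, so both set how fast actin turns over. The mRNAs of these genes are among the most abundant of most cultured cells, and Actb is often used as a reference gene.

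The reads counted on genes numbered 723431 to 1348676 in a tumour, which was 2.06% to 4.61% of the uniquely aligned reads. HTSeq, the counting tool, placed 27930688 to 41026677 uniquely aligned reads per tumour on no feature. The strand setting of the counting is not given in the sources used here, so every count below is what HTSeq assigned to the gene, and whether it holds the reads of the annotated strand, of the opposite strand or of both was not settled. The predicted genes Gm10800 and Gm10801 together took 1.31% (CTRL tumour 2) to 49.0% (CTRL tumour 1) of the counted reads. Olfactory and vomeronasal receptor genes, 1965 genes that skin tumours should leave silent, had 0.0811 (CTRL tumour 2) to 1.30 (CTRL tumour 1) reads per kb of exon, and this density is used below as a background. The 8 melanoma markers summed to between 755 and 1703 CPM, reads scaled by the TMM size of the library over all genes with a read, in each tumour, led by Dct. The 11 monocyte and macrophage markers summed to between 106 and 401 CPM, but Csf1r alone held 1137 of their 1360 reads, and Cd14, Lyz2, Itgam, C1qa and C1qb had at most 4 reads in any tumour. The libraries were therefore read as melanoma tissue and not as sorted monocytes. The melanoma sums (755 to 1546 CPM in CTRL, 785 to 1703 in SEVO) and the monocyte and macrophage sums (106 to 301 in CTRL, 212 to 401 in SEVO) overlapped between the groups. Marker sums of fibroblasts (21.7 to 86.7 CPM), muscle (18.3 to 39.6 CPM), endothelium (10.2 to 52.8 CPM), red cells (16.9 to 137 CPM) and keratinocytes (1.34 to 24.5 CPM) overlapped too, every list had reads on all its genes, and the part of other cells in the results below was not tested. In bulk tissue, fewer cells that express a gene and less RNA per cell cannot be told apart.

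Because only uniquely mapped reads were counted, the sequences of the near-identical members are shown first. They decide which stretches of an mRNA could give a counted read. Actb and Actg1 encode cytoplasmic beta- and gamma-actin, which differ in a few residues at the start of the protein. Their coding sequences had the same base at 88.6% of 1125 positions, 128 positions differed, and the longest identical run was 62 bases. The first 60 coding bases are shown because they hold the codons that tell the actins apart. They were read from the GENCODE release M21 transcripts (build GRCm38) and run 5′ to 3′ on the coding strand, and capitals mark the 9 positions that differ.
Actb: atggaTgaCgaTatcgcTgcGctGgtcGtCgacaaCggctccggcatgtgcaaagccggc
Actg1: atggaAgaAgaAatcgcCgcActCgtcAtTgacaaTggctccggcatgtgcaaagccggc

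The alpha-tubulins were closer still. Tuba1a and Tuba1b had the same base at 98.3% of 1353 coding positions, and Tuba1b and Tuba1c at 98.4% of 1347 positions. Only 32 of the first 1323 coding positions differed among the 3 genes. Coding bases 640 to 699 held 10 of these positions and are shown because reads from here can tell Tuba1a from its neighbours. Capitals mark the differing positions, and Tuba1b and Tuba1c have the same letters.
Tuba1a: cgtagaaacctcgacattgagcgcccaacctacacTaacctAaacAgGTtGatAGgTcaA
Tuba1b: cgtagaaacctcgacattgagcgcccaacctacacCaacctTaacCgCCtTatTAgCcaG
Tuba1c: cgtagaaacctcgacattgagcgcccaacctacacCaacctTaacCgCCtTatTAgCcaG

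For description, the members were split at 50 reads over the 6 tumours into genes with many reads and genes with few. Actb, Vim, Tubb5, Cfl1 and Tmsb10 had at least 50 reads, and Tuba1a, Tuba1c, Actg1 and Tuba1b had fewer. Tmsb10 lay exactly at the cut, with 50 reads. All 9 together held 420, 314 and 370 reads in CTRL tumours 1, 2 and 3, and 133, 208 and 465 reads in SEVO tumours 1, 2 and 3. These 1910 reads were 0.0331% of all counted reads, and the share ranged from 0.0154% in SEVO tumour 1 to 0.0524% in SEVO tumour 3. The lowest and the highest share thus both came from the SEVO group. Actb alone held 50.8% of the members' reads.

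**Figure D1:**
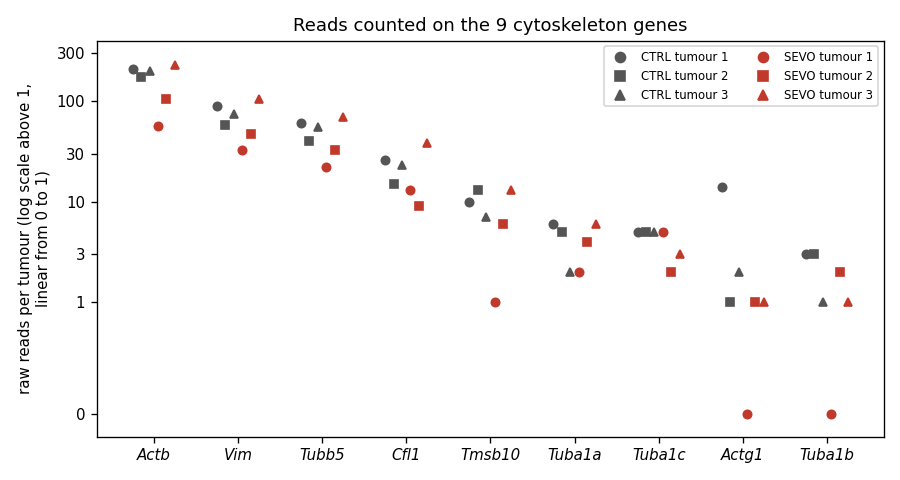
Raw reads per tumour of each gene on a log axis that is linear below 1, with CTRL tumours in grey, SEVO tumours in red, and a marker shape for each tumour number. Actb lies between 57 and 228 reads, the genes from Tuba1a to the right lie at 14 reads or fewer, and SEVO tumour 1 is lowest or tied lowest in 7 of the 9 genes.

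Actb (ENSMUSG00000029580.14), the gene of beta-actin, lies on the minus strand of chromosome 5 from 142903115 to 142906754 in GRCm38, the build of every position here, with 2679 bp of exon. Its reads were 207, 174 and 200 in CTRL tumours 1, 2 and 3 and 57, 104 and 228 in the SEVO tumours, numbered likewise in every list that follows. The CTRL tumours lay close together and inside the range of the SEVO tumours, which spanned lower and higher values. With 970 reads in all, Actb ranked 713 by reads among the 42423 genes with at least 1 read, so 1.68% of these genes had more reads. Per kb of exon it ranked 1083.

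Vim (ENSMUSG00000026728.9), the gene of vimentin, lies on the plus strand of chromosome 2 from 13573927 to 13582826, with 4743 bp of exon. It had 89, 58 and 74 reads in CTRL and 33, 47 and 105 reads in SEVO tumours. Both SEVO tumours 1 and 2 lay below every CTRL tumour, and SEVO tumour 3 lay above them. Vim ranked 1578 by reads and 3352 per kb of exon.

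Tubb5 (ENSMUSG00000001525.10), a broadly expressed beta-tubulin, lies on the minus strand of chromosome 17 from 35833921 to 35838306, with 3327 bp of exon. It had 60, 40 and 56 reads in CTRL and 22, 33 and 70 reads in SEVO tumours, the same order of tumours as in Vim. It ranked 2115 by reads and 3381 per kb. The alpha- and beta-tubulin proteins pair in equal numbers in every microtubule, and counts of mRNA reads do not measure that pairing. The mean density over the 6 tumours was 14.1 reads per kb of exon for Tubb5, and 2.31 for Tuba1a, 1.82 for Tuba1c and 0.889 for Tuba1b among the alpha-tubulin members. Tuba4a, an alpha-tubulin outside the members, had 458 raw reads in all, against 281 for Tubb5, totals that are not scaled by exon length.

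Cfl1 (ENSMUSG00000056201.7), the gene of the non-muscle cofilin, lies on the plus strand of chromosome 19 from 5490455 to 5495201, with 2844 bp of exon. It had 26, 15 and 23 reads in CTRL and 13, 9 and 38 reads in SEVO tumours, so that the groups overlapped. Snx32, a sorting nexin gene on the opposite strand, shares 468 of these exon bases and had 14, 9 and 27 reads in CTRL and 18, 17 and 30 reads in SEVO tumours. With the strand setting unknown, the reads of the shared bases cannot be told apart, and the counts of Cfl1 and Snx32 are uncertain to that extent.

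Tmsb10 (ENSMUSG00000079523.8), the gene of thymosin beta-10, lies on the minus strand of chromosome 6 from 72957347 to 72958748, with 1276 bp of exon. It had 10, 13 and 7 reads in CTRL and 1, 6 and 13 reads in SEVO tumours. The lowest and one of the highest values were both in SEVO tumours. It ranked 8997 by reads and 5121 per kb, since its mRNA is short.

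The alpha-tubulin genes lie side by side on chromosome 15. Tuba1a (ENSMUSG00000072235.6, minus strand, from 98949837 to 98953703, 1803 bp of exon) had 6, 5 and 2 reads in CTRL and 2, 4 and 6 reads in SEVO tumours. Tuba1c (ENSMUSG00000043091.9, plus strand, from 99029891 to 99038110, 2287 bp) had 5 reads in every CTRL tumour and 5, 2 and 3 reads in SEVO tumours. Tuba1b (ENSMUSG00000023004.8, minus strand, from 98931425 to 98934565, 1875 bp) had 3, 3 and 1 reads in CTRL and 0, 2 and 1 reads in SEVO tumours. None of the 3 genes separated the groups, and Tuba1b had at most 3 reads in any tumour, a count at which no fold change is given. Gm49450, a predicted gene on the same strand, shares 473 exon bases with Tuba1a and 426 with Tuba1b and had 0 reads in every tumour. HTSeq can tally a read that fits both genes as ambiguous and count it for neither, so these 0 reads do not show that the overlap took none. Densities per kb use the full exon length, and the reads lost to the overlap were not tested. Gm41396, on the opposite strand, shares 87 exon bases with Tuba1b and had 6, 3 and 3 reads in CTRL and 1, 3 and 1 reads in SEVO tumours, so the reads of Tuba1b and Gm41396 cannot be told apart there either.

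Actg1 (ENSMUSG00000062825.15), the gene of gamma-actin, lies on the minus strand of chromosome 11 from 120345690 to 120348542, with 2658 bp of exon. It had 14, 1 and 2 reads in CTRL and 0, 1 and 1 reads in SEVO tumours. A single library, CTRL tumour 1, held 14 of its 19 reads, and CTRL tumours 2 and 3 did not stand apart from the SEVO tumours in raw reads. Over the 6 tumours the mean density was 1.19 reads per kb of exon for Actg1 and 60.3 for Actb. The miRNA entries Gm23419 and Mir6935 inside its exons, on the same strand, had 0 reads, and reads that fit both can likewise be left out as ambiguous.

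The level of each gene was next set against the background, as reads per kb of exon divided by the density of the olfactory and vomeronasal receptor genes of the same tumour. Actb stood at 59.3, 801 and 125 times that density in the CTRL tumours and at 109, 174 and 210 times in the SEVO tumours. Vim (14.4 to 151 times) and Tubb5 (13.8 to 148 times) were also more than 10 times the background in all 6 tumours. Cfl1 (7.02 to 65.0 times) was so in 5 tumours and Tmsb10 (4.03 to 126 times) in 3. For each of these genes the lowest multiple came from CTRL tumour 1 or SEVO tumour 1, and the highest from CTRL tumour 2, whose background was lowest.

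The genes with few reads stood nearer to the background. Tuba1a stood at 1.86 to 34.2 times and Tuba1c at 1.68 to 26.9 times. Tuba1b ranged from 0 to 19.7 times and lay below the background in 2 tumours. Actg1 stood at 4.04, 4.64 and 1.26 times in CTRL and at 0, 1.68 and 0.926 times in SEVO tumours, never above 10 times and below the background in 2 tumours. In CTRL tumour 1, where Actg1 had its 14 reads, a gene of its length at the background density would have had 3.46 reads, and 2.09% of the 1965 receptor genes had a density at or above that of Actg1. In the other tumours with a read of Actg1 this share ran from 4.94% to 38.0%. For Actb it was at most 0.102% in any tumour.

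**Figure D2:**
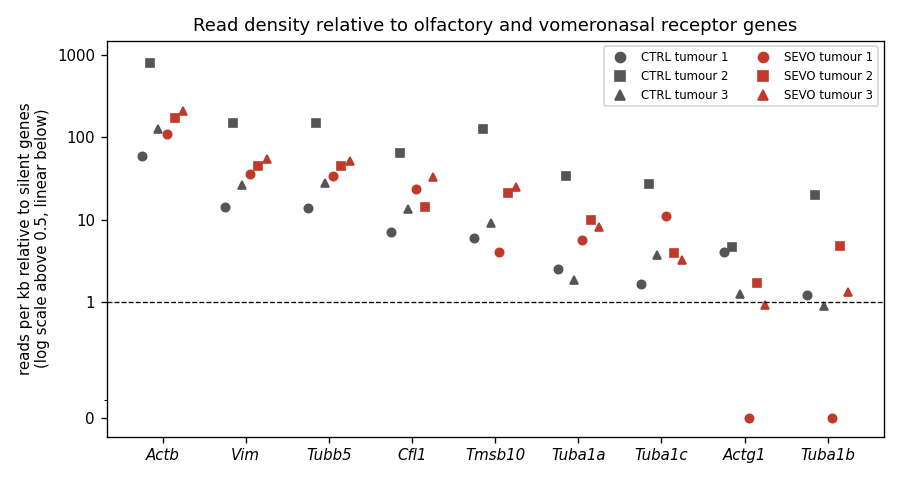
Reads per kb of exon divided by the density of the 1965 olfactory and vomeronasal receptor genes of the same tumour, on a log axis that is linear below 0.5, with CTRL tumours in grey and SEVO tumours in red. The dashed line marks the background, Actb lies at 59.3 times or more, and Actg1 and Tuba1b each have 2 tumours below the line.

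The share of each mRNA that is also found in other genes followed a similar division. Every stretch of 50 bases (50-mer) of the annotated transcripts was looked up in the transcripts of other genes of GENCODE release M21. Genes whose exons overlap those of the member were left out of its search. Gm49450 was therefore left out for Tuba1a and Tuba1b but searched for Tuba1c, where it held 25.9% of the 50-mers. Vim shared 0%, Tubb5 0.0892%, Cfl1 7.29% and Actb 9.12% of its 50-mers with another gene. Tmsb10 shared 27.0%, with 21.6% in the predicted gene Gm9844. The share was 36.3% for Actg1, 52.7% for Tuba1c, 64.3% for Tuba1a and 74.3% for Tuba1b. With stretches of 100 bases the shares were 0.644% for Actb, 29.9% for Actg1, 46% for Tuba1c, 50% for Tuba1a and 61.7% for Tuba1b. The members with the most shared sequence were thus those with the fewest reads, given here as a description over 9 genes.

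The partners were of different kinds. For Actg1 the largest were pseudogenes, Gm12715 with 33.2% of its 50-mers, Gm8399 with 23.1% and Actg-ps1 with 14.5%, and Gm12715 had 2 reads in all. For Tuba1b the largest partner was Tuba1c (53.6%), and Tuba1c was also that of Tuba1a (46.9%). For Actb it was Lrrc58 (6.14%). A read from a shared stretch maps to more than one place and is left out of the counts, so the counts of Actg1 and of the Tuba1 genes can understate their mRNA. The read length is not given in the sources used here and only annotated transcripts were searched, so the number of reads lost this way was not tested.

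**Figure D3:**
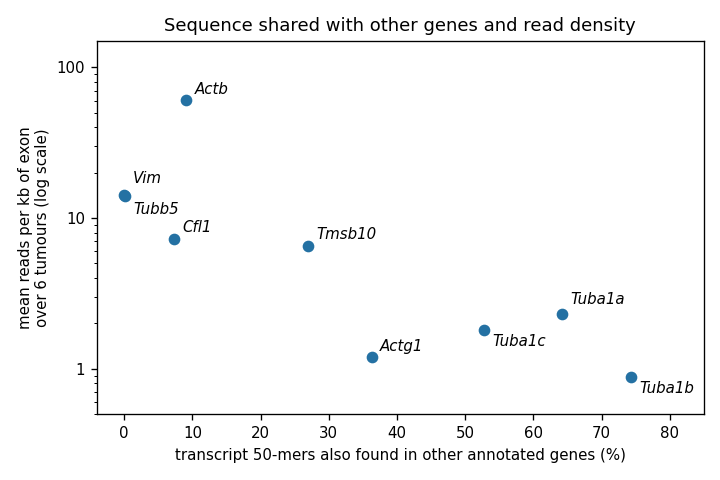
Mean reads per kb of exon over the 6 tumours on a log axis, against the percent of each gene's 50-mers that also occur in transcripts of other annotated genes, without genes that overlap its exons. The Tuba1 genes and Actg1, with 36.3% to 74.3% of shared 50-mers, lie at 2.31 reads per kb or lower, and the genes with under 10% at 7.27 or higher.

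The members with many reads moved together from tumour to tumour. SEVO tumour 3 had the highest read count, or shared it, in 5 of the 5 members with at least 50 reads, and SEVO tumour 1 had the lowest in 4 of them. Cfl1 was the exception, with its lowest count in SEVO tumour 2. The proportions among these 5 genes over the 6 tumours had a chi-squared of 20.7 on 20 degrees of freedom, or 1.04 per degree. No spread beyond counting error was detected, but counts as low as 1 read (Tmsb10 in SEVO tumour 1) cannot show equal proportions. The reads of Tmsb10 divided by those of Actb ran from 0.0175 in SEVO tumour 1 to 0.0747 in CTRL tumour 2. Some marker genes moved beside them. The melanoma markers Dct (327, 469 and 424 reads in CTRL against 206, 234 and 619 in SEVO tumours), Pmel (202, 198 and 225 against 134, 180 and 302) and Tyrp1 (307, 210 and 233 against 115, 158 and 361) were also lowest in SEVO tumour 1 and highest in SEVO tumour 3. So was Sox10, but the rest of the list was not. Gpnmb was highest in CTRL tumour 1 and Tyr in CTRL tumour 3, while Mitf and Mlana were lowest in SEVO tumour 2. Csf1r, a receptor of macrophages, ran the other way, with 88, 209 and 165 reads in CTRL against 257, 242 and 176 in SEVO tumours. No other gene of its marker list was highest in SEVO tumour 1, so Csf1r does not stand for the list. Ptprc had 26, 2 and 20 reads in CTRL against 5, 4 and 9 in SEVO tumours. Cd68 had 17, 8 and 7 against 15, 11 and 11. The part of tumour cell content in the members' values was not tested. As CPM of the uniquely aligned reads, Actb stood at 7.07, 5.23 and 6.68 in CTRL and at 1.36, 2.69 and 6.87 in SEVO tumours.

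The comparison of SEVO with CTRL asks whether priming of the melanoma cells left a trace in the tumours that grew from them. Of the 9 genes, 0 had an adjusted p under 0.05 in edgeR's quasi-likelihood test, and 0 had an unadjusted p under 0.05. Actb, Vim, Tubb5 and Cfl1 passed the filter on low counts, and the other 5 members were read from a fit of all genes with at least 1 read. Over all genes, 0 of 7561 (0%) had an adjusted p under 0.05 in the fit with the filter, where 330 (4.36%) had an unadjusted p under 0.05, and 0 of 42423 (0%) in the fit without it, where 1021 (2.41%) did. DESeq2 also gave 0 genes, and 265 at an unadjusted p under 0.05. At an unadjusted p under 0.02 and a fold of at least 1.5, 79 genes passed in edgeR with the filter (1.04%) and 266 without it (0.627%). None of the 9 members were among them. The study applied these thresholds to results of DESeq2, not of edgeR. The count of 79 changed whichever tumour was left out, down for some and up for others. It became 28, 1449 and 32 without CTRL tumour 1, 2 or 3, and 13, 14 and 479 without SEVO tumour 1, 2 or 3. Without CTRL tumour 2, 31 genes had an adjusted p under 0.05. None of the 9 members had an adjusted p under 0.05 in any of these fits.

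Actb averaged 233 ± 16.8 CPM in the CTRL group and 142 ± 95.3 CPM in the SEVO group (SD, n = 3 each). The SD of the SEVO tumours was several times that of the CTRL tumours, since SEVO tumour 3 had 249 CPM and SEVO tumour 1 had 65.5 CPM. On the log2 scale SEVO over CTRL stood at -0.71 (standard error 0.44, adjusted p = 0.741 from edgeR with Benjamini-Hochberg adjustment), and the two-sided exact permutation test gave p = 0.3, where 3 tumours against 3 cannot go below 0.1. The value lay between -1.35 (without SEVO tumour 3) and -0.32 (without SEVO tumour 1) over 15 alternative settings, and 0 of them gave an adjusted p under 0.05.

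Vim averaged 88.6 ± 17.9 CPM in CTRL against 67.6 ± 41.1 CPM in SEVO tumours, and its log2 fold change was -0.39 (standard error 0.41, edgeR adjusted p = 0.779). Tubb5 averaged 62.4 ± 11.4 against 45.7 ± 27.0 CPM, with -0.45 on the log2 scale (standard error 0.41, edgeR adjusted p = 0.763). Cfl1 averaged 25.6 ± 6.41 against 22.0 ± 17.03 CPM, with -0.22 on the log2 scale (standard error 0.55, edgeR adjusted p = 0.882). In each of these genes SEVO tumours 1 and 2 lay below all CTRL tumours and SEVO tumour 3 lay above them. The signs of Vim, Tubb5 and Cfl1 turned in the fit without the filter, and that of Cfl1 also with the library size alone as scaling, so no direction is given for them. Leaving out SEVO tumour 3 took Vim to -0.95, Tubb5 to -0.99 and Cfl1 to -1.0, still with no adjusted p under 0.05.

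The other members were read from the fit without the filter, in which the median over all genes was -0.38. Tmsb10 averaged 10.1 ± 6.38 against 7.35 ± 5.79 CPM, with -0.34 on the log2 scale (standard error 0.71, edgeR adjusted p = 0.909). Tuba1a (0.24, standard error 0.95) and Tuba1c (-0.19, standard error 0.96) each had an adjusted p of 0.955, and their standard errors were several times their log2 fold changes. Actg1 averaged 4.01 ± 4.16 CPM in CTRL against 0.758 ± 0.670 CPM in SEVO tumours. Its fitted value of -2.27 on the log2 scale (standard error 1.30, edgeR adjusted p = 0.793) depends on the prior count of the fit, since the SEVO tumours held 2 reads in all. By CPM the CTRL tumours of Actg1 all lay above the SEVO tumours, while their raw reads overlapped (exact permutation p = 0.1, the smallest possible). Without CTRL tumour 1 the fitted value of Actg1 was -1.0.

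Actg1 was the 1 member of 9 whose groups did not overlap in CPM. None of the 4 members that passed the filter was so, where 647 of 7561 genes were (8.56%), and Actg1 was 1 of the 5 read from the fit without it, where 2168 of 42423 genes were (5.11%). The median log2 fold change was -0.42 over the 4 members with the filter, beside -0.02 over all genes tested there. In the fit without the filter the same 4 genes had a median of 0.03, beside -0.38 over all genes, so their place relative to all genes turned from lower to higher. The 5 other members had the median of Tmsb10 there, -0.34. Summed over the 9 genes on the scale of the fit without the filter, whose CPM are not comparable with those of Actb, Vim, Tubb5 and Cfl1 above, CTRL tumours had 345 ± 79.2 CPM and SEVO tumours 306 ± 143 CPM (SD, n = 3 each), with the lowest (188) and the highest (464) sum in SEVO tumours 1 and 3.

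**Figure D4:**
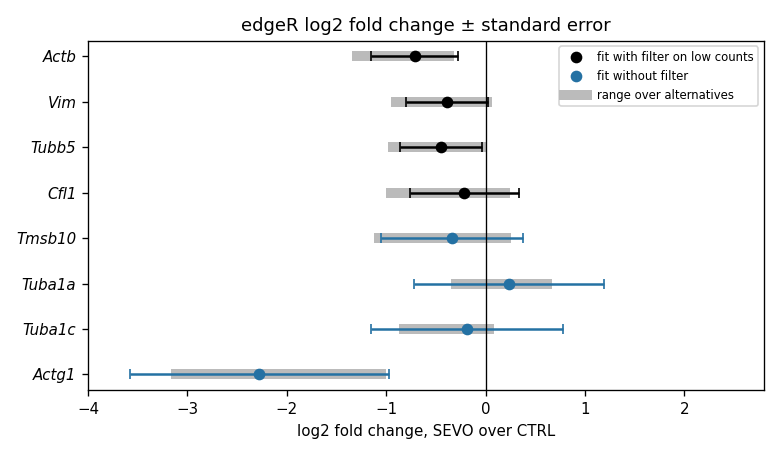
Log2 fold change of SEVO over CTRL tumours from edgeR with its standard error, in black for genes that passed the filter on low counts and in blue for genes read from the fit without it, and with grey bars for the range over 15 alternative settings. The error bars of Vim, Cfl1, Tmsb10, Tuba1a and Tuba1c reach across 0 and none of the genes had an adjusted p under 0.05, while Tuba1b is left out because it had at most 3 reads in a tumour.

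The reads of a gene divided by those of Actb in the same tumour need no scaling between libraries. This was computed for the 4 other members with at least 50 reads, after their values had been seen. The ratio of Vim was 0.430, 0.333 and 0.370 in CTRL and 0.579, 0.452 and 0.461 in SEVO tumours, so every SEVO tumour lay above every CTRL tumour. That of Tubb5 was 0.290, 0.230 and 0.280 in CTRL and 0.386, 0.317 and 0.307 in SEVO tumours, again without overlap. The group means were 0.378 ± 0.0488 and 0.497 ± 0.0710 for Vim and 0.267 ± 0.0322 and 0.337 ± 0.0429 for Tubb5 (SD, n = 3 each). The two-sided exact permutation test gave p = 0.1 for both, the smallest it can give, and 0.2 after Benjamini-Hochberg adjustment over the 4 ratios. The proportions among Actb and these 4 genes had a chi-squared of 1.04 per degree of freedom over the tumours, a spread about the size of counting error. Both ratios share the Actb counts, and 610 of the other 7560 tested genes (8.07%) also had a ratio to Actb that was higher in every SEVO than in every CTRL tumour, against 43 (0.569%) that were lower. The ratios of Cfl1 (exact permutation p = 0.4) and Tmsb10 (p = 0.7) overlapped between the groups.

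**Figure D5:**
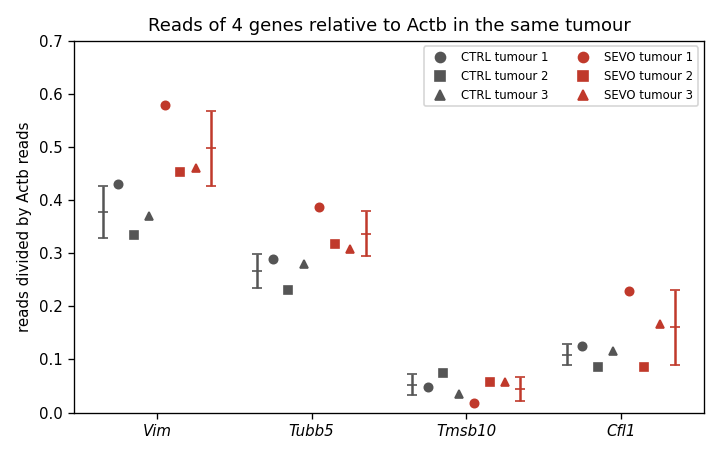
Reads of 4 genes divided by the Actb reads of the same tumour, with CTRL tumours in grey, SEVO tumours in red, and bars for the mean and SD of each group (n = 3). For Vim and Tubb5 the SEVO tumours lie above the CTRL tumours, and for Tmsb10 and Cfl1 the groups overlap.

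Other genes of the cytoskeleton were taken from a list of 89 genes in 10 classes, of which 38 passed the filter. Of these, 0 had an adjusted p under 0.05 with edgeR, 1 had an unadjusted p under 0.05 (4.36% of all tested genes did), and 3 had groups that did not overlap in CPM (8.56% of all tested genes). Neither share, 1 and 3 of 38, stood above that of all genes, and the 3 genes are named below for their values only. The fitted values were above 0 in 11 and below 0 in 27, with a median log2 fold change of -0.36 beside -0.02 over all tested genes. The list was read in the fit with the filter only. In the fit without it, the place of Actb, Vim, Tubb5 and Cfl1 relative to all genes turned, so no direction is given for the list. The muscle actins had few reads, with Actg2 at 0 to 7 and Actc1 at 0 to 9 reads per tumour. Among other tubulins, Tuba4a, an alpha-tubulin, had 49, 100 and 45 reads in CTRL and 101, 98 and 65 reads in SEVO tumours. Tubb6, a beta-tubulin, had 16, 40 and 28 reads in CTRL and 39, 39 and 56 reads in SEVO tumours, with overlapping groups.

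In the classes that act on actin, Arpc1b, a subunit of the Arp2/3 complex that branches filaments, had 94, 146 and 135 reads in CTRL and 158, 191 and 127 reads in SEVO tumours. It had the most reads of the listed genes, 851 in all. Capza2, a subunit of the protein that caps filament ends, had 39, 16 and 25 reads in CTRL and 6, 6 and 24 reads in SEVO tumours, or -1.27 on the log2 scale (standard error 0.60, edgeR adjusted p = 0.741). Of the monomer binding and turnover genes, Pfn1 (profilin) had 15 to 52 reads per tumour, while Wdr1, a partner of cofilin, had 49, 27 and 42 in CTRL and 11, 18 and 40 in SEVO tumours. Of the bundling and crosslinking genes, Flna (filamin A) had 34 to 113 reads and Tpm2 (a tropomyosin) 12 to 66 reads with overlapping groups. Tagln (transgelin) had 22, 34 and 29 reads in CTRL and 51, 40 and 50 reads in SEVO tumours, without overlap, or 0.60 on the log2 scale (standard error 0.35, edgeR adjusted p = 0.741).

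The non-muscle myosin heavy chains Myh9 (45 to 173 reads) and Myh10 (31 to 64 reads) overlapped between the groups, and Myh9, like Actb, Vim and Tubb5, was lowest in SEVO tumour 1 and highest in SEVO tumour 3. Vinculin (Vcl), which links actin to adhesions, had 64, 67 and 72 reads in CTRL and 61, 57 and 61 reads in SEVO tumours and did not overlap, with -0.30 on the log2 scale (standard error 0.30). Its partner talin (Tln1) had 32 to 87 reads and overlapped. The tubulin folding cofactor Tbce (51 to 79 reads) and Mapt, the gene of the microtubule protein tau (26 to 50 reads), also overlapped. Among intermediate filament genes, Plec (plectin, 17 to 80 reads) overlapped. Lmna, the gene of the nuclear lamins A and C, had 31, 24 and 39 reads in CTRL and 12, 17 and 25 reads in SEVO tumours. It was the gene with the unadjusted p under 0.05, with -0.92 on the log2 scale (standard error 0.42, edgeR adjusted p = 0.741), and its groups did not overlap in CPM though they did in raw reads. Mrtfa, a coactivator of serum response factor that senses free actin, had 33, 8 and 21 reads in CTRL and 9, 7 and 12 reads in SEVO tumours, and its relative Mrtfb had 26, 4 and 11 and 7, 4 and 9 reads.

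The genes whose pattern over the 6 tumours was most like that of the members were looked for among 1987 genes with a mean of at least 50 reads. The measure was Pearson's r of log2 CPM with the mean of Actb, Vim, Tubb5 and Cfl1, given as a description over 6 tumours that share libraries and scaling. Syne2 (r = 0.994), a giant protein of the nuclear envelope, had 230, 136 and 210 reads in CTRL and 73, 87 and 262 reads in SEVO tumours. Dync1h1 (r = 0.990), the heavy chain of dynein, and Mki67 (r = 0.990), the gene of the proliferation antigen Ki-67, followed. All 3 were lowest in SEVO tumour 1 and highest in SEVO tumour 3. The opposite pattern was strongest in Tiam2 (r = -0.980), Fbxw2 (r = -0.978) and Slc25a18 (r = -0.973), and Fbxw2 had 204, 221 and 249 reads in CTRL and 328, 323 and 230 reads in SEVO tumours. In all, 52 of the 1987 genes (2.62%) had r of at least 0.9 and 74 (3.72%) had r of -0.9 or less.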

How the data were processed

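The authors removed ribosomal reads (SortMeRNA), trimmed with Trimmomatic 0.36, aligned to GRCm38 with STAR 2.6.0c and counted uniquely mapped reads with HTSeq 0.9.1 on GENCODE (versions per the submitters' processing notes). The deposited values are raw counts per gene, with no normalization. Read length and strand setting are not given in the sources used here. Of 53801 listed genes, 53706 were matched by identifier to GENCODE M21 for symbols, exon lengths and transcripts. HTSeq tallies were left out of library sizes. Groups came from the labels, and since no source says that the tumours of a group came from separate cell cultures, p-values measure only the spread between these tumours.

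The groups were compared with edgeR 4.0.16 in R 4.3.3 (quasi-likelihood test, TMM, filterByExpr, Benjamini-Hochberg adjustment over all genes tested), checked on simulated counts. DESeq2, the package the authors used, was an alternative in version 1.42.0. Standard errors were derived from the F statistic. CPM values were scaled by the TMM library sizes. Reads in a tumour ranged from 723431 to 1348676 counted, which with 0 to 228 reads per member limits precision.

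The members and lists were chosen with earlier results of these data known. The genes named are the 9 members, genes that overlap their exons, the 2 genes with most reads in each class of the cytoskeleton list and its 3 lowest p-values in each direction, the 3 most and 3 least correlated genes, and Gm10800 and Gm10801. Partners that share sequence, marker genes and Lrrc58 were named after their values were seen.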

Additional observations from a re-analysis of the deposited data

How the results depend on the processing

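Over 15 alternative settings, 0 of the 9 genes had an adjusted p under 0.05, and Actb and Actg1 kept their sign in all of them. Setting by setting, the DESeq2 Wald test gave 49 genes at an unadjusted p under 0.02 and a fold of at least 1.5, in place of 79. Of these 49, 26 were higher and 23 lower in SEVO tumours, and Cfl1 turned to 0.0865. Without the filter on low counts there were 266 genes, with Vim at 0.0629, Tubb5 at 0.0015 and Cfl1 at 0.25. With the library size only, Cfl1 was 0.10, the median of all genes moved from -0.02 to 0.22, and 60 genes passed, 24 higher and 36 lower, against 8 higher and 71 lower. The silent gene density as a covariate gave 152 genes. Using uniquely aligned reads as the library size, chosen after seeing the data, gave 52 genes, Tuba1a at -0.35, and sums of the 9 genes of 12.04 CPM (CTRL) and 7.52 (SEVO). Without Gm10800 and Gm10801 the CTRL sum was 447 CPM in place of 345. The causes were not tested. The counts with RLE factors (78), robust dispersion (76) and without Gm10800 and Gm10801 (72) stayed within 1.5 times of 79.

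Leaving out each tumour in turn gave 13 (without SEVO tumour 1) to 1449 genes (without CTRL tumour 2) at these thresholds, 479 without SEVO tumour 3, 14 to 32 without any of the others, and 0 to 31 genes (without CTRL tumour 2) at an adjusted p under 0.05. It moved Cfl1 from -1.0 to 0.22, Tmsb10 from -1.12 to 0.26, Tuba1c from -0.73 to 0.0839 and Tuba1a from -0.17 to 0.67. With the replicate block, which pairs tumours by number, 1 gene had an adjusted p under 0.05, 129 passed the other thresholds and Actb was at -0.91. Same-numbered tumours correlated at -0.399, 0.32 and 0.083 in their deviations from the group means. These values cannot show whether same-numbered tumours shared a cell culture or a day, and the titles give only a replicate number.

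Actg1 and the Tuba1 genes had at most 14 reads per tumour. The standard errors of the log2 fold changes were 0.95 for Tuba1a, 0.96 for Tuba1c and 1.30 for Actg1. In Actg1 and the Tuba1 genes, differences of that size were not detectable at this depth. HTSeq left out reads that map to several places, and how many belonged to these genes was not tested.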
